A study of Mus musculus with 17 samples.

Results

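The genes described here encode the proteasome, the protein complex that degrades ubiquitin-tagged proteins. They were taken by symbol, as every gene named Psma, Psmb, Psmc or Psmd followed by a number, with Psmb limited to the constitutive subunits Psmb1 to Psmb7. The rule found 35 genes among the 78298 genes in each library's table. Of these, 15 encode the core (8 of the alpha ring and 7 of the beta ring) and 17 encode the cap (6 base ATPases, 3 other base subunits and 8 lid subunits). The remaining 3, Psmd5, Psmd9 and Psmd10, carry a subunit-style symbol but encode chaperones that help to assemble the base. They are described apart from the cap.

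The proteasome is built from a hollow core and a cap that binds at its ends. The core stacks rings of alpha subunits, which gate the entrance, around rings of beta subunits, which hold the proteolytic sites of Psmb5, Psmb6 and Psmb7. The cap recognises ubiquitin chains, removes them and unfolds the substrate with a ring of ATPases, Psmc1 to Psmc6. In neurons this pathway takes part in turnover of synaptic proteins, and its genes are known to be raised together by the transcription factor encoded by Nfe2l1.

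Transcript levels were measured by RNA-seq of poly(A) RNA in tissue labelled locus coeruleus, the noradrenergic nucleus of the brainstem, from male C57BL/6 mice. Vindeburnol was given in 5 libraries and VB-127, which the labels call its derivative, in 6, each at 20 mg/kg by oral gavage once daily for 5 days. The 6 controls were untreated, so the compound and the gavage cannot be told apart in any comparison with them. Tissue was taken 24 h after treatment, the sources used here give no age, and libraries are not said to come from separate animals. The p-values therefore measure the spread between these samples, which may be technical. Values are TPM, a relative abundance scaled to the same total in each library, which corrects for transcript length. Levels of different genes are set side by side on this scale. Differences in base composition between genes, described below, were not adjusted for here. TPM keeps no read depth, and the depth is unknown.

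The label of the tissue did not match its defining markers in most libraries. Dbh, the enzyme that makes noradrenaline, had a median of 1.08 TPM (0 to 18.9), and Slc6a2, the noradrenaline transporter, had one of 0.300 TPM. Tph2 of serotonergic and Slc6a3 of dopaminergic neurons had medians of 74.2 and 45.5 TPM. Bc1, a short neuronal RNA, took 16.1% to 35.3% of a library's TPM total, with the highest share in control 4. The same library had the lowest sum of 4 neuronal markers, 680 TPM against 1085 to 1950 in the other 16. Its sums of 4 astrocyte, 4 oligodendrocyte and 4 microglia markers were also the lowest, at 177, 2002 and 61.9 TPM. Those of endothelial and erythrocyte markers were not. Some proteasome values below are lowest in this library. In such bulk tissue fewer cells of a type, less RNA per cell and a larger Bc1 share of the fixed TPM total cannot be told apart.

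A shared regulatory element was looked for first, since members that vary together are described below. The antioxidant response element, TGACNNNGC on either strand, was searched in RefSeq windows (GRCm38.p6) from 250 bases before to 50 bases after each gene's start. Windows were found for 28 of the 35 members, and 5 of these held the element (17.9%), against 3781 of 27025 genes in the whole table (14.0%). The catalytic subunit genes Psmb5 and Psmb6, the ATPase gene Psmc6, the lid gene Psmd12 and the chaperone gene Psmd9 held it. The 60 bases around each are printed 5′ to 3′ along the gene's own strand, with the element in capitals, because these are the members in which the letters were present.
Psmb5: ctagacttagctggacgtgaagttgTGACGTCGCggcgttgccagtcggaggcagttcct
Psmb6: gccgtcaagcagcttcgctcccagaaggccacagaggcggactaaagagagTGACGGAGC
Psmd9: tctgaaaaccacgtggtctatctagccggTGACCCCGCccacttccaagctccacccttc
Psmc6: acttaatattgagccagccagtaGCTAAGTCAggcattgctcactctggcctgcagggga
Psmd12: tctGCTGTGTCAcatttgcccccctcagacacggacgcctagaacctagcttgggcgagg
The stretches lie at chr14:54618008-54618067 on the minus strand for Psmb5, chr11:70525297-70525356 on the plus strand for Psmb6 and chr5:123228130-123228189 on the plus strand for Psmd9. Those of Psmc6 and Psmd12 lie on the plus strand at chr14:45329574-45329633 and chr11:107479278-107479337, and there the element reads on the opposite strand. In Psmb6, Psmd9 and Psmb5 it begins 9, 31 and 47 bases before the start, and in Psmc6 and Psmd12 it lies 227 and 247 bases before it. A CCAAT box on either strand, searched after the values were known, was present in 11 of the 28 members (39.3%) and in 41.1% of all genes in the table. Both shares lay close to those of promoters at large, and a match is a run of letters, not a tested site.

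In the core, the beta ring lay above the alpha ring in all 17 libraries. The mean over the beta subunits was 1.36 to 1.92 times that over the 7 tested alpha subunits within a library. Psmb6 (ENSMUSG00000018286), which holds the caspase-like site, had the highest mean of the core at 255 TPM, followed by the structural subunit Psmb4 at 249.7 TPM. Psmb5 (ENSMUSG00000022193) and Psmb7 (ENSMUSG00000026750), with the chymotrypsin-like and trypsin-like sites, stood at 182 and 181 TPM. The structural subunits Psmb3, Psmb1 and Psmb2 had means of 133, 122 and 90.0 TPM. Psmb6 and Psmb4, and likewise Psmb5 and Psmb7, differed by less than their SD between libraries. The steps from Psmb4 to Psmb5 (SD 25.1 and 13.9), from Psmb7 to Psmb3 (SD 13.0 and 10.4) and from Psmb1 to Psmb2 (SD 8.60 and 7.14) were larger than it, and that from Psmb3 to Psmb1 was about as large.

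The alpha subunits formed a lower and a higher set. Psma6, Psma7 and Psma3 had means of 162, 148 and 134 TPM, and Psma1, Psma4, Psma2 and Psma5 had means of 85.3, 70.6, 65.8 and 65.6 TPM. Psma5 (ENSMUSG00000068749) and Psma2 were the lowest of the core by their means, and the gap between the highest and the lowest core gene within a library was 3.33 to 5.22-fold. Psma8 is the alpha subunit of germ cells, where it takes the place of Psma7. It was listed between 0.0689 and 1.53 TPM with a median of 0.222 TPM, and it was the only member that did not reach 1 TPM in at least 5 libraries. The other 34 were tested.

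**Figure D1:**
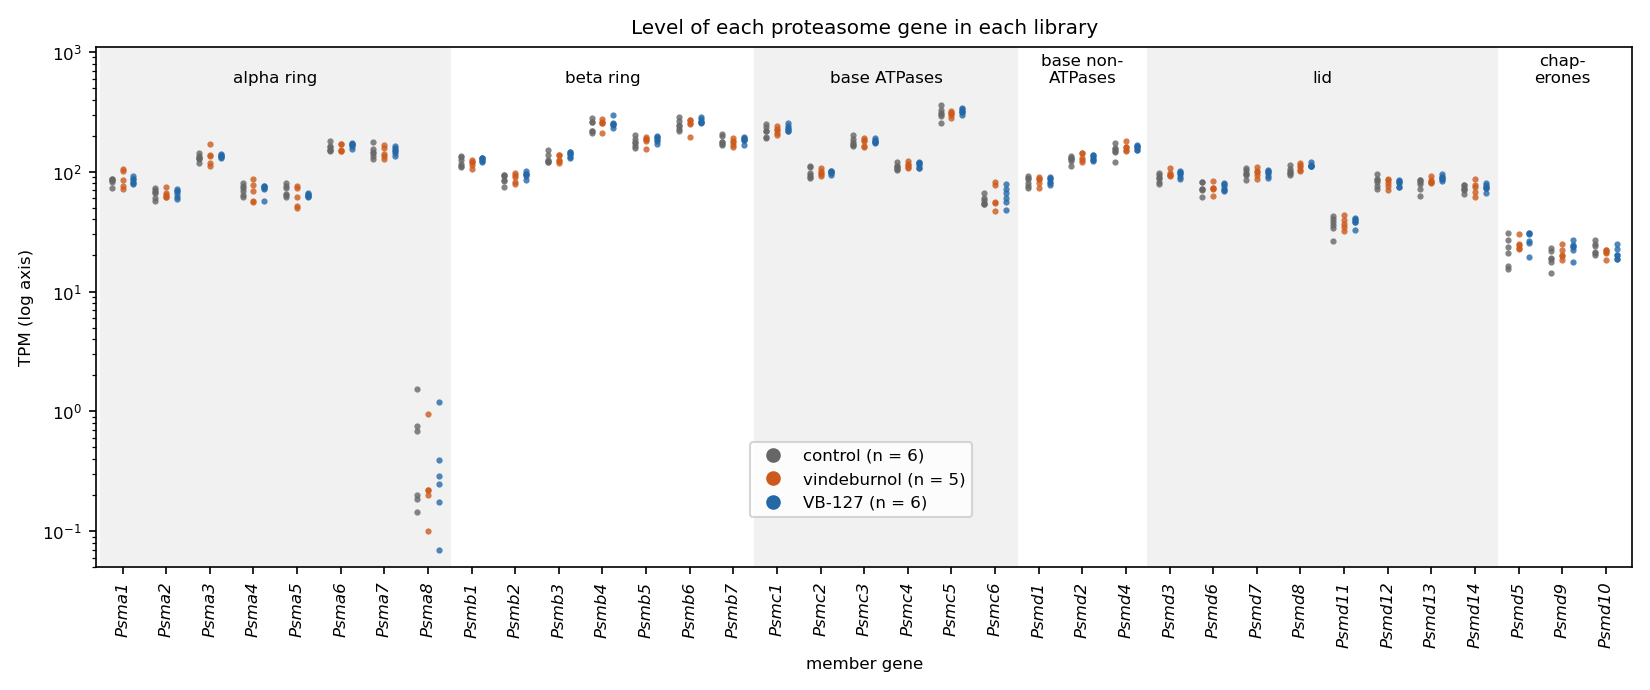
TPM of each of the 35 genes (log axis) in each library, with genes ordered by part of the proteasome and points coloured by group. The groups overlap for every gene, Psmc5 is the highest gene in each library, and Psma8 is the only one near or under 1 TPM.

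The cap spanned a wider range than the core. Psmc5 (ENSMUSG00000020708), an ATPase of the base, was the highest of all members in 17 of 17 libraries, between 257 and 359 TPM with a mean of 311 TPM. Psmd11 (ENSMUSG00000017428), a scaffold subunit of the lid, was the lowest subunit gene that passed the filter in 17 of 17, between 26.5 and 43.5 TPM with a mean of 37.3 TPM. Within a library the highest cap gene stood 7.08 to 11.7-fold above the lowest. Subunits that sit side by side in the same assembly had transcript levels that were far from equal.

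The 6 ATPases form a single ring, and their means ran from 61.4 TPM for Psmc6 over 98.7 TPM for Psmc2, 113 TPM for Psmc4, 178 TPM for Psmc3 and 224 TPM for Psmc1 to 311 TPM for Psmc5. Of the other base subunits, the ubiquitin receptor Psmd4 had a mean of 156 TPM and the scaffolds Psmd2 and Psmd1 had means of 129.5 and 83.3 TPM. The lid had a lower mean level than the ATPases and was more even than they were. Psmd8 and Psmd7 led the lid at 108 and 97.5 TPM, and Psmd3, Psmd13 and Psmd12 lay between 81.2 and 93.4 TPM. Psmd6 and the deubiquitinase Psmd14 stood at 73.6 and 73.5 TPM, and Psmd11, given above, was well below them at 37.3 TPM. The chaperones Psmd5, Psmd10 and Psmd9 took the last 3 places among the tested members in every library, with means of 24.8, 21.7 and 21.1 TPM.

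**Figure D2:**
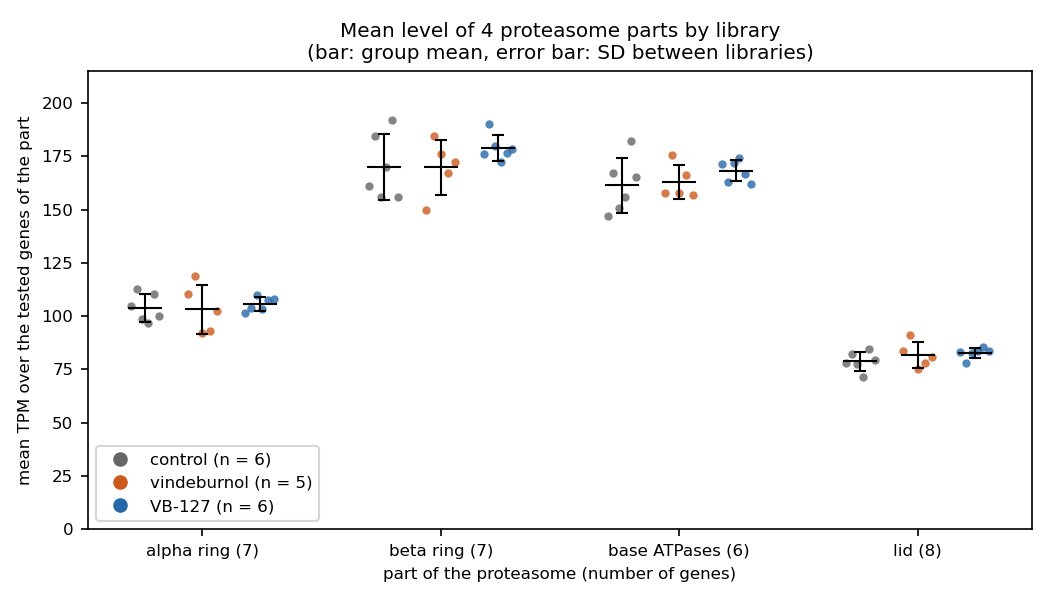
Mean TPM over the tested genes of 4 parts of the proteasome in each library, by group, with the group mean and SD. The alpha ring (91.9 to 119), beta ring (149.7 to 192), base ATPases (147 to 182) and lid (71.3 to 91.2) overlap between the 3 groups, and the VB-127 libraries are the most tightly placed in each.

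No proteasome gene passed the test in any of the 3 comparisons. Differences were fitted on log2(TPM + 1) with limma over all 16153 tested genes, with a call at an adjusted p under 0.05 (Benjamini-Hochberg, two-sided). Because of the added 1, a difference slightly understates the change of low genes. Vindeburnol against controls gave 0 called members of 34, with 0% of all genes called. VB-127 against controls gave 0 of 34, with 1 gene or 0.00619% of all genes called. Vindeburnol against VB-127 gave 0 of 34, again with 0% of all genes called. In each comparison 0 of 34 members had groups that did not overlap. Among all tested genes the share with such groups was 0.52% where vindeburnol and controls were compared. It was 0.669% with VB-127 in its place and 0.39% between the compounds.

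Vindeburnol was first set against untreated controls. The median difference was -0.01 (log2) over the 14 tested core genes and 0.03 over the 17 cap genes. Over all tested genes it was 0.08. With single libraries left out the core median ranged from -0.05 (without vindeburnol 2) to 0.03 (without control 5), and it was above 0 without vindeburnol 3 or 4 or control 2 or 5. The cap median ranged from -0.01 (without control 4) to 0.07 (without control 5), and it was also below 0 without vindeburnol 2. At an unadjusted p under 0.05 there were 0 members, while 8.17% of all genes reached that level. Of the 34 members 20 were higher in value (58.8%), against 69.7% of all genes.

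Among the catalytic subunits, Psmb5 was at 154, 196, 187, 180.0 and 188 TPM in vindeburnol libraries 1 to 5 and at 159 to 201 TPM (median 175) in controls. Its log2 difference was 0.03 (SE 0.07, 95% interval -0.13 to 0.18, adjusted p = 0.946 in limma). Psmb6 was at 195, 269.5, 270.0, 254 and 248 TPM against 219 to 286 TPM (median 245), a log2 difference of -0.01 (SE 0.08). Both genes were lowest in vindeburnol 1 and close to the upper controls in vindeburnol 2. Psmb7 was at 167, 192, 177, 160.5 and 181 TPM against 167 to 208 TPM (median 178), with a log2 difference of -0.06 (SE 0.07). Psmb1, a structural beta subunit, had a log2 difference of -0.06 (SE 0.07) from 117 against 122 TPM. Without vindeburnol 1 the Psmb6 value was 0.07, on the other side of 0.

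Psmd3 (ENSMUSG00000017221), a scaffold subunit of the lid, had the smallest p of the members after vindeburnol. It was at 94.8, 108, 92.2, 97.8 and 93.4 TPM, against a lowest, median and highest control of 78.3, 88.7 and 97.5 TPM. All 5 libraries lay above the control mean of 88.1 TPM, though 2 controls reached into their range. The log2 difference was 0.14 (SE 0.07, 95% interval -0.01 to 0.29, adjusted p = 0.618 in limma). Psmd8 and Psmd13, also of the lid, had log2 differences of 0.11 and 0.12 (SE 0.07 and 0.08, adjusted p = 0.677 and 0.697 in limma). With median-ratio scaling the values of Psmd3, Psmd8 and Psmd13 were 0.06, 0.02 and 0.04. Without control 6, the lowest library for Psmd13, its value was 0.06.

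The lowest value of the comparison was that of Psma5, an alpha ring subunit. It was at 75.4, 73.7, 52.1, 50.1 and 62.0 TPM after vindeburnol and at 61.7 to 79.8 TPM (median 69.1) in controls. Libraries 3 and 4 lay below all controls and libraries 1 and 2 among the upper ones. The log2 difference was -0.17 (SE 0.10, 95% interval -0.39 to 0.04, adjusted p = 0.672 in limma). It was -0.10 without vindeburnol 4 and -0.24 without vindeburnol 1. Of the base chaperones, Psmd5 and Psmd9 were higher in value (0.19 and 0.15) and Psmd10 lower (-0.11), with adjusted p of 0.765, 0.770 and 0.786.

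VB-127 was then set against the same controls, so that both comparisons share these 6 libraries. The median difference was 0.05 (log2) over the core and 0.06 over the cap, against 0.11 over all tested genes. At an unadjusted p under 0.05 there were 3 members, or 8.82% of 34, where 10.2% of all genes reached that level. The 3 were the lid genes Psmd8 and Psmd13 and the chaperone gene Psmd9, all higher in value. Of all members 30 were higher in value (88.2%), against 79.4% of all genes.

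Psmd8 (ENSMUSG00000030591), a lid subunit, had the smallest p. Its lowest, median and highest values were 111, 113 and 119.9 TPM after VB-127 and 94.2, 99.5 and 114 TPM in controls. The VB-127 libraries were closely spaced, and only control 5, at 114 TPM, reached into their range. The log2 difference was 0.16 (SE 0.06, 95% interval 0.03 to 0.29, adjusted p = 0.470 in limma), and 6 of 6 libraries lay above the control mean.

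Psmd13 (ENSMUSG00000025487), another subunit of the lid, was at 83.8, 88.3 and 95.2 TPM (lowest, median and highest) after VB-127 and at 62.6, 80.3 and 86.1 TPM in controls. Control 6 was the lowest of all 17 libraries for this gene, and controls 4 and 5 lay within the VB-127 range. The log2 difference was 0.19 (SE 0.08, 95% interval 0.03 to 0.35, adjusted p = 0.470 in limma), with 6 of 6 libraries above the control mean. Psmd3 was at 87.0, 97.1 and 101 TPM against the controls given above, with a log2 difference of 0.12 (SE 0.07, adjusted p = 0.554).

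All 7 beta ring genes and all 6 ATPase genes were higher in value after VB-127, and none passed. With median-ratio scaling 0 of 7 and 1 of 6 were. Psmb6 was at 254, 261 and 289 TPM (lowest, median and highest) against 219, 245 and 286 TPM, a log2 difference of 0.11 (SE 0.08, 95% interval -0.06 to 0.27, adjusted p = 0.618 in limma). Psmb5 was at 169, 188 and 199 TPM and Psmb7 at 167, 186 and 194 TPM, with log2 differences of 0.08 and 0.01 (SE 0.07 for both). Psmb3 and Psmb2 had log2 differences of 0.11 each (SE 0.07, adjusted p = 0.562 and 0.580). Under that scaling Psmd8 and Psmd13 kept a positive value, 0.04 and 0.07, and Psmd3 was at -0.01.

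The chaperones of the base had the largest values of the comparison. Psmd5 was at 19.4, 28.2 and 31.1 TPM against 15.5, 22.3 and 30.8 TPM, and its log2 difference was 0.29 (SE 0.15, 95% interval -0.02 to 0.61, adjusted p = 0.514 in limma). Psmd9 was at 17.5, 23.8 and 26.7 TPM against 14.4, 18.7 and 23.2 TPM, and the fitted log2 value was 0.27 (SE 0.12, 95% interval 0.02 to 0.52, adjusted p = 0.479). For both, low and high libraries occurred in each group, and the ranges overlapped over most of their length. Psmd10 differed by -0.13 (SE 0.10, adjusted p = 0.628).

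The compounds were compared with each other at the same dose, number of days and time after treatment. All 7 beta ring genes were lower in value after vindeburnol than after VB-127, with a median log2 difference of -0.09. The count was 6 of 7 with median-ratio scaling and 5 of 7 without vindeburnol 1. The core as a whole had a median of -0.06, the cap one of -0.02 and all tested genes one of -0.03. The cap median was 0.01 without vindeburnol 3 or 5. None of the 34 members reached an unadjusted p under 0.05, against 3.38% of all genes, and 7 were higher in value (20.6%) against 38.9% of all genes.

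Psmb3, a structural beta subunit, was at 118, 139, 137, 123 and 126 TPM after vindeburnol and at 131 to 146 TPM (median 141) after VB-127. The vindeburnol libraries 1, 4 and 5 lay below all VB-127 libraries. The log2 difference was -0.12 (SE 0.07, 95% interval -0.27 to 0.03, adjusted p = 1.00 in limma). Psmb1 differed by -0.12 (SE 0.07) and Psmb6 by -0.12 (SE 0.08). Psmb7 differed by -0.07 and Psmb5 by -0.05 (SE 0.07 each). Vindeburnol 1 was the lowest of all 17 libraries for Psmb1, Psmb3, Psmb5 and Psmb6, and without it the Psmb5 value was 0.01.

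In the cap, the smallest p between the compounds belonged to Psmc5, Psmd13 and Psmc1, with log2 differences of -0.08, -0.07 and -0.06 (SE 0.07, 0.08 and 0.07). Psmc5 was at 279.8, 312, 308, 322 and 298 TPM after vindeburnol and at 297 to 341 TPM (median 320.4) after VB-127, with only vindeburnol 1 under the VB-127 range. For all 34 members the 95% interval of the difference between compounds lay within 0.5 log2 units of 0. For vindeburnol against controls this held for 33 and for VB-127 against controls for 32, with Psmd5 outside in both and Psmd9 in the second. The intervals bound the size of a difference and do not show that the compounds act alike.

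**Figure D3:**
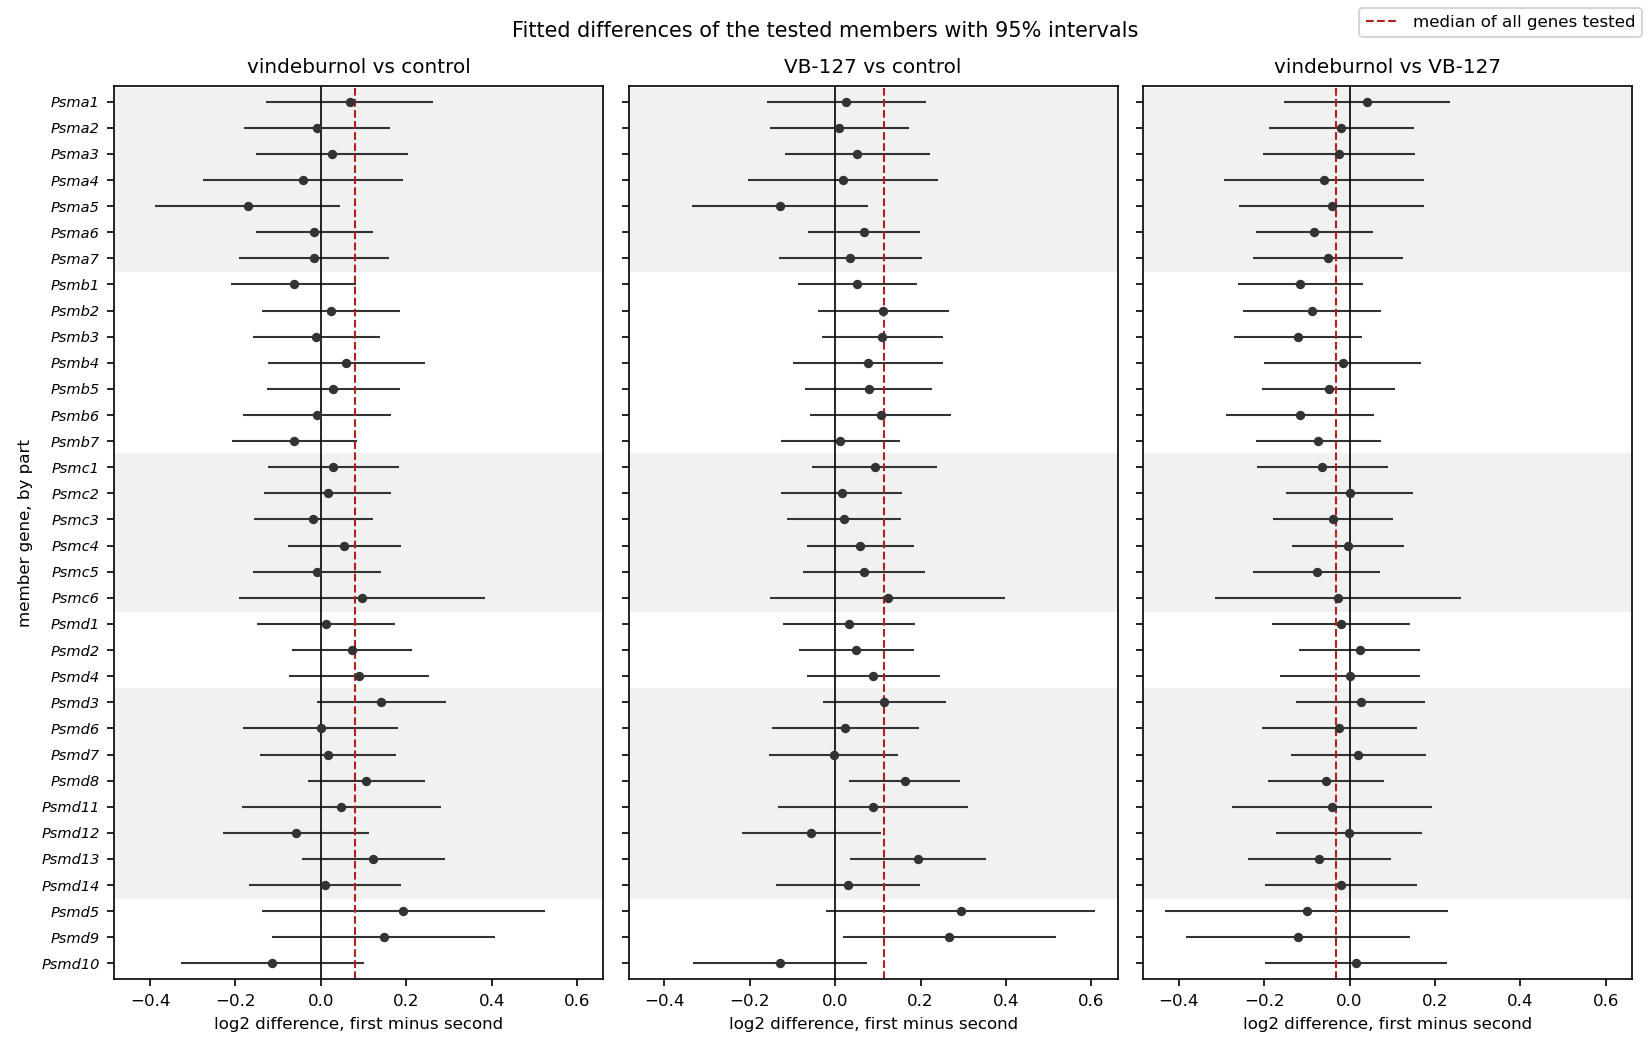
Log2 difference (first group minus second) with its 95% interval for each of the 34 tested genes in 3 comparisons, ordered by part. The dashed line is the median of all tested genes, at 0.08, 0.11 and -0.03; most members lie below it in the first 2 panels, and only Psmd8, Psmd13 and Psmd9 after VB-127 have intervals that leave out 0.

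The direction of the members against controls depended on the scaling of the libraries. Most genes of any kind were higher in value after either compound. The mean Bc1 share of the TPM total was 24.53% in controls, 21.39% after vindeburnol and 21.04% after VB-127 (SD 5.90, 5.89 and 4.41). A lower Bc1 share leaves more of the fixed total for all other genes. The part of this share in the all-gene medians was not tested. Median-ratio scaling shifted the all-gene median of 0.08 for vindeburnol to 0.003 and that of 0.11 for VB-127 to 0.009. It moved the core to -0.10 and the cap to -0.06 for vindeburnol, and the core to -0.07 and the cap to -0.06 for VB-127. The members higher in value were then 20.6% for vindeburnol and 14.7% for VB-127, against 50.7% and 52.7% of all genes. Between the compounds the scaling gave 47.1% of members and 49.7% of all genes. No member passed the test under any scaling. In both comparisons the medians of core and cap lay below the all-gene median with and without this scaling, and the controls are the same libraries in both.

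The members varied little between libraries of a group. The residual SD of log2(TPM + 1) had a median of 0.12 over the members (0.13 for the core and 0.11 for the cap). Over all tested genes it was 0.26, and over the 5025 genes in the same range of mean level it was 0.19. The most variable members were the chaperone gene Psmd5, at 0.28, and the ATPase gene Psmc6, at 0.25. The steadiest was the ATPase gene Psmc4, at 0.07.

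The VB-127 libraries were the most alike in proteasome levels. The coefficient of variation, the SD as a percentage of the mean, had a median over members of 5.56% in the 6 VB-127 libraries, 8.46% in the 5 vindeburnol libraries and 9.34% in the 6 controls. VB-127 had the smallest of the 3 for 29 of 34 members (85.3%), and for 58.0% of all tested genes. No VB-127 library was the lowest of the 17 for any of the 34 tested members. Control 4 was the lowest for 8 members, 7 of them of the cap, and vindeburnol 2 the highest for 8, 6 of them of the cap. In control 4 the deviation from the group mean and log2 transcript length had a correlation of -0.43 over the 34 members. Over 13495 tested genes it was -0.40, and both were the largest in size of the 17 libraries. Median transcript lengths were 1201 and 899 bases in the alpha and beta rings and 1688 to 2961 bases in the parts of the cap. The low neuronal and glial markers of control 4 were given above. Neither their part nor that of transcript length in its proteasome values was tested.

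Members varied together across libraries, with higher correlations than pairs of genes in general. After the group means were removed, the median correlation over the 17 libraries was 0.43 between pairs of core genes, 0.47 between cap genes and 0.33 between a core and a cap gene. Over pairs of all tested genes it was 0.21. Those pairs were not matched to the members by mean level, unlike the SD above, and the part of level in the gap was not tested. The points share the library, so its composition enters each of them. Within the rings the values were higher, 0.70 in the beta ring and 0.58 in the alpha ring, but only 0.30 between one ring and the other. The closest pairs were Psmb6 with Psmb4 (0.89), the base genes Psmd4 and Psmc5 (0.89), and Psmd12 with Psmd1 (0.88). Psmd13, named above, followed the others least, with a median correlation of 0.02 with the other members, and Psmc2 followed them most, at 0.54.

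**Figure D4:**
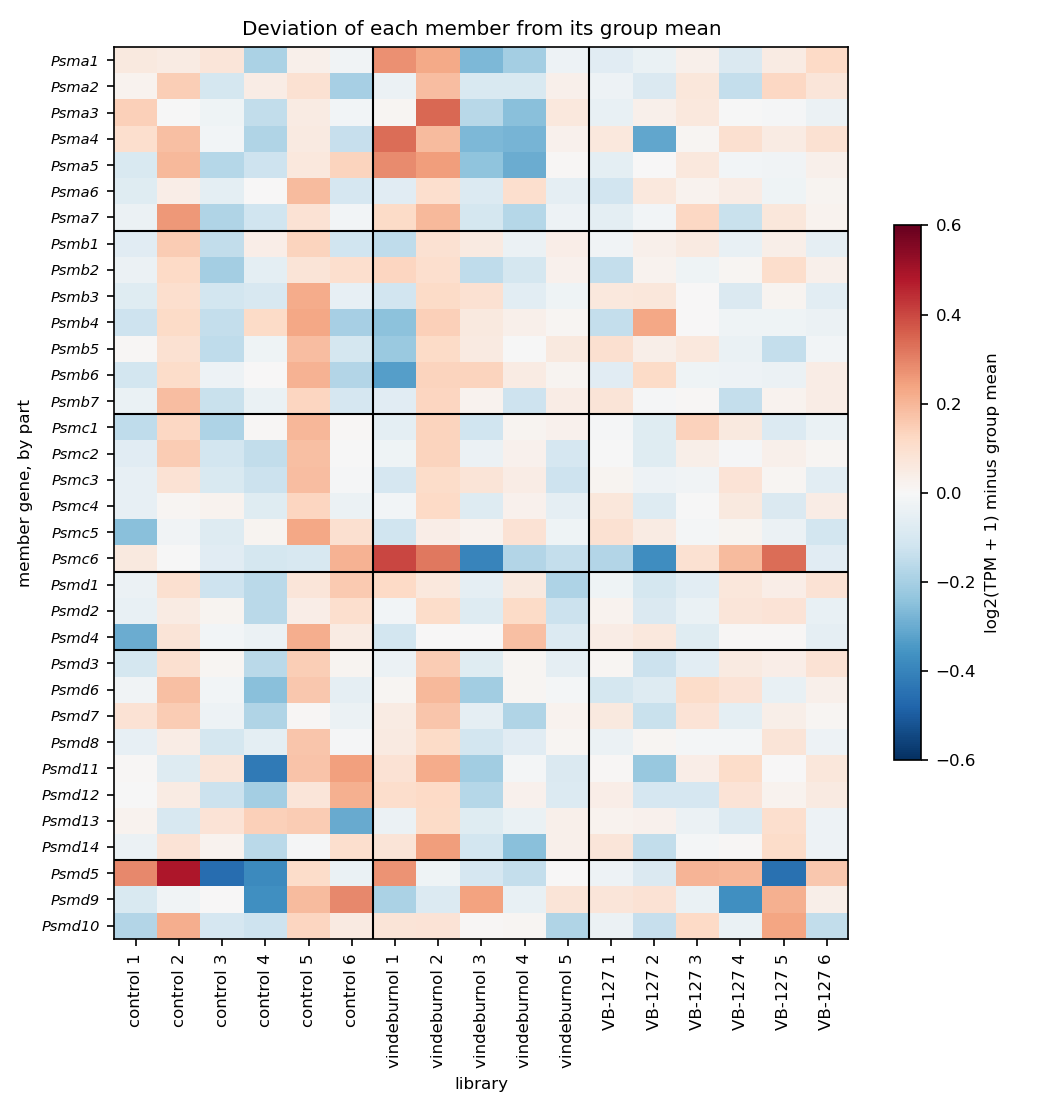
Deviation of each of the 34 tested genes from its group mean, as log2(TPM + 1), in each library, ordered by part (rows) and group (columns). Control 5, control 2 and vindeburnol 2 are above their group means for most genes, and in vindeburnol 1 several alpha ring genes and Psmc6 are high while most beta ring genes are low.

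Several alpha and beta genes parted most clearly in vindeburnol 1. There Psma1 and Psma4 were the highest of all 17 libraries, at 106 and 86.4 TPM, while Psmb6 was the lowest, at 195 TPM. The split did not cover the whole of either ring. Psma2 and Psma6 deviated from their group means by -0.04 and -0.07 log2 units in vindeburnol 1, Psma3 by 0.01 and the beta gene Psmb2 by 0.13. The mean log2 level of the beta ring exceeded that of the alpha ring by 0.45 in vindeburnol 1, the smallest gap of the 17, and by 0.94 in vindeburnol 3, the largest. Psmc6 moved with Psma1 and Psma4, from 81.6 TPM in vindeburnol 1 to 46.6 TPM in vindeburnol 3, which were its highest and lowest values. It was the partner of the most negative pair, with a correlation of -0.56 with Psmb6.

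The rings also differ in base composition, and this was examined after the values were known. The longest coding transcript of each gene in GENCODE M21 had a median GC content of 52.2% in the beta ring and 45.0% in the alpha ring. Psmc6, at 37.0%, was the lowest member, and Psmd3, at 58.3%, the highest. Over the 34 members, the deviation in a library and GC content had a correlation that ranged from -0.61 in vindeburnol 1 to 0.65 in control 5. These libraries and vindeburnol 3 (0.59) are named because their values were the largest in size of the 17. Next came VB-127 2 (0.54), vindeburnol 4 (0.49), vindeburnol 2 (-0.48), VB-127 3 (-0.45) and control 1 (-0.44), and the other 9 lay between -0.26 and 0.36. Over 13495 tested genes with a transcript there, the values were -0.25 in vindeburnol 1, 0.30 in vindeburnol 3 and 0.25 in control 5, and 0.04 in VB-127 3. The part of GC content in the alpha and beta values was not tested.

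**Figure D5:**
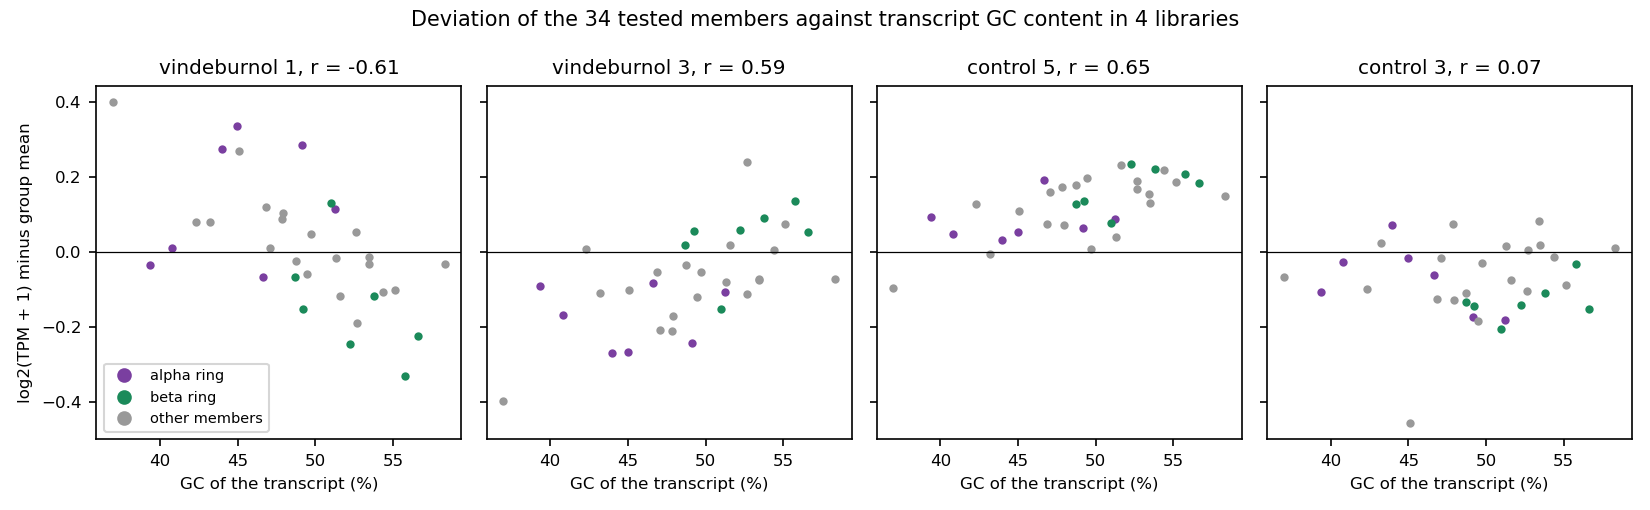
Deviation of the 34 tested genes from their group mean, as log2(TPM + 1), against the GC content of the transcript in percent, in 4 libraries. Genes of low GC lie high in vindeburnol 1 (r = -0.61) and low in vindeburnol 3 (r = 0.59) and control 5 (r = 0.65), while control 3 has no such slope (r = 0.07).

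Genes around the proteasome were read from 7 lists with 32 genes, of which 31 were tested. None passed in any comparison. At an unadjusted p under 0.05 there were 3 (9.68%) for vindeburnol and 2 (6.45%) for VB-127 against controls, where 8.17% and 10.2% of all genes reached that level. Psmb10, the inducible counterpart of Psmb7, had the smallest p of the lists in both comparisons with controls. It was at 52.2 to 78.6 TPM (median 61.6) in controls, 67.4 to 80.9 TPM (median 77.9) after vindeburnol and 68.2 to 84.4 TPM (median 75.5) after VB-127. The log2 differences from controls were 0.25 (SE 0.10, adjusted p = 0.555 in limma) and 0.26 (SE 0.10, adjusted p = 0.470). The other inducible subunits, Psmb8 and Psmb9, had far lower medians, 7.02 and 2.18 TPM, and Psmb11 of the thymus was at 0 in 12 of the 17 libraries.

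The second named gene of the lists was Psmg1, a chaperone of alpha ring assembly, for vindeburnol against controls (25.1 against 20.7 TPM, log2 difference 0.28, SE 0.12, adjusted p = 0.570 in limma). The third gene of that count, named after its values were seen, was Psmf1, an inhibitor of the core (28.9 against 24.5 TPM, log2 difference 0.24, SE 0.11, adjusted p = 0.594). For VB-127 against controls it was Psme2, a subunit of the activator that opens the alpha ring (47.1 against 40.8 TPM, log2 difference 0.20, SE 0.09, adjusted p = 0.470). Between the compounds the ubiquitin gene Ubb had a log2 difference of -0.12 (SE 0.06, adjusted p = 1.00). In those lists, the genes higher in value after vindeburnol than in controls were 3 of 3 tested inducible subunits, 5 of 5 activators and inhibitor, 3 of 5 core chaperones, 2 of 4 other cap genes, 1 of 4 ubiquitin genes, 6 of 6 shuttle and unfolding factors and 3 of 4 genes of transcription. After VB-127 the counts in the same order were 3, 5, 4, 3, 3, 5 and 4. In all, 74.2% of the 31 were higher in value after vindeburnol and 87.1% after VB-127, against 69.7% and 79.4% of all genes. With median-ratio scaling these shares were 41.9% and 54.8%, against 50.7% and 52.7% of all genes, so the counts depended on the scaling. Nfe2l1, which encodes the factor that raises proteasome genes, had a median of 136 TPM over all libraries, and the related Nfe2l2 one of 13.3 TPM.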

How the data were processed

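Per the submitters' processing notes, the authors aligned reads with STAR to GRCm39 and quantified them with Salmon. The sources used here do not say whether counting used strand. The deposited values are TPM per gene, 1 file per library. A second table of all libraries was not used. Processed copies of some subunit genes exist in the mouse genome, and no source used here says how reads were shared among them.

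Values were analysed as log2(TPM + 1) for the 16153 genes with at least 1 TPM in at least 5 of 17 libraries. Group means were estimated in 1 limma fit over the 17 libraries (version 3.58.1 in R 4.3.3) with robust, trended eBayes moderation, and p-values were adjusted over all tested genes. The fit was tested on simulated data. The members and gene lists were chosen with earlier results of these data known. Named genes were Psmb5 to Psmb7 in each comparison, the 3 core and 3 cap genes with the smallest p, the base chaperones, the highest and lowest genes, and per comparison 2 genes of the pathway lists; 1 gene that this rule takes is not reported here. All others are described by level. Genes named for promoters, GC content or library patterns were chosen after their values were seen. Promoter windows came from RefSeq (GRCm38.p6), a build other than that of the files, and were matched by symbol; GC content came from GENCODE M21 for 34 of 34 tested members. Alternatives covered pseudocount, filter, scaling, weights, moderation, a replicate block, the groups fitted and libraries left out.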

Additional observations from a re-analysis of the deposited data

Results flagged for a closer look

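In 6 of 105 sets of values, each the levels of a member in one group, the highest or lowest library stood farther from the others than the 95% limit for its gap allows. Chance does this in about 1 in 20 sets. VB-127 2 accounted for 3 of them: it was the lowest of its group for Psma4 at 57.2 TPM, the lowest for Psmd11 at 32.6 TPM and the highest for Psmb4 at 299 TPM. Psma1 was lowest in control 4, at 72.9 TPM against 82.0 TPM in the nearest control. Psma8, the germ cell subunit, was highest in VB-127 1 at 1.19 TPM and in vindeburnol 1 at 0.959 TPM. All other members had no such library in any group.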

How the results depend on the processing

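No member passed the test in limma under any of 30 alternatives (11 settings, each of 17 libraries left out and 2 pairs of libraries left out, the last chosen after the data were seen), and the lowest adjusted p over 3060 values was 0.273. The number of genes of any kind called for VB-127 against controls was 1; it was 0 with a pseudocount of 0.1, without a filter or with one of 5 TPM, 3 with library weights, 2 with only the 2 groups, 2 without controls 1 and 6, and 0 to 1 with single libraries left out (0 without VB-127 4, 5 or 6 or without control 4 or 5). For vindeburnol against controls it was 1 in place of 0 when rescaled without Bc1 and mitochondrial genes, with library weights and with plain moderation. With the replicate number as a block, 0 genes were called for VB-127 against controls. Between groups, 16 same-numbered pairs of libraries had a median correlation of -0.04, with 1 above 0.1. The 80 other pairs had a median of 0.02, with 10 above 0.1. The labels do not say whether the numbers pair samples, and these correlations cannot decide it.

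Median-ratio scaling moved the medians to -0.0958 (core) and -0.0569 (cap) for vindeburnol and to -0.0694 and -0.0626 for VB-127. Quantile normalization gave -0.0307 for the cap after VB-127. Rescaling without Bc1 and mitochondrial genes gave -0.0511 (cap) for vindeburnol and -0.0330 and -0.0260 for VB-127. The cause was not tested.

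Single genes changed sign near 0. For vindeburnol against controls Psmb5 was -0.0566, -0.0470 and -0.0508 under these 3 scalings, and with single libraries left out it ranged from -0.000852 to 0.0855 and Psmb6 from -0.0448 to 0.0732; without vindeburnol 1 and 3 Psmb6 was 0.0557. For VB-127 against controls median-ratio scaling gave -0.0433 for Psmb5, -0.0152 for Psmb6, -0.110 for Psmb7, -0.0103 for Psmb3, -0.00783 for Psmb2 and -0.00534 for Psmd3. Psmb7 was -0.0582 with quantile normalization, -0.0729 and Psmb5 -0.00648 when rescaled without Bc1, Psmb7 -0.0237 without controls 1 and 6 and -0.0148 to 0.0490 with single libraries left out. Between the compounds Psmd10 was -0.0399 with library weights, -0.0137 without vindeburnol 1 and 3 and -0.0143 to 0.0624 with single libraries left out; Psmb5 was 0.00887 without vindeburnol 1 and 3 and -0.0778 to 0.00752 with single ones. Read depth is unknown, so no limit from counts can be given.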
